A study of Mus musculus with 12 samples.

Results

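The genes that mark the mesothelium (Msln, Upk1b, Upk3b, Wt1, Lrrn4, Bnc1 and Muc16) and the keratins of simple epithelium (Krt8, Krt18 and Krt19) were followed in RNA of mouse lung endothelial cells (MLECs). They were set by a list of names drawn up with earlier results of these data known, and are 10 of the 28689 genes in the deposited table, which lists each of them. Primary MLECs came from adult male mice, of 6 to 8 weeks by the study's statement on its animals, by collagenase digestion of the lung and selection on beads against CD31 and, once confluent, against intercellular adhesion molecule 2. CTR mice were VE-CAD-CreERT2- / Sp1 fl/fl / Sp3 fl/fl littermates, whose genotype the labels give as WT, and dKO mice were VE-CAD-CreERT2+ / Sp1 fl/fl / Sp3 fl/fl. Both groups carried the floxed alleles of Sp1 and Sp3 and received intraperitoneal tamoxifen on consecutive days. By the study's description they differed in the Cre recombinase, which the VE-cadherin promoter drives in endothelial cells. Whether the groups differed in other ways was not tested. Each group had 6 libraries. The number of mice behind a library is not given, so p-values measure the spread between these libraries.

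The mesothelium is a single layer of flat cells of mesodermal origin that covers the lung surface as the visceral pleura and lines the other body cavities. It carries features of epithelium, among them junctions, microvilli and keratin filaments, together with mesenchymal genes such as Wt1. Simple-epithelium keratins assemble in pairs of a type II and a type I chain, with Krt8 as type II and Krt18 and Krt19 as type I. They occur in mesothelium and in the epithelium of airways and alveoli, and endothelial intermediate filaments are built chiefly of vimentin.

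The deleted factors Sp1 and Sp3 bind GC boxes, so the start regions of the genes were read for the letters GGGCGG or, on the other strand, CCGCCC. RefSeq start regions (build GRCm38.p6, 250 bases before the start to 50 after it) matched 6 of the 10 genes, namely Upk3b, Lrrn4, Bnc1, Muc16, Krt8 and Krt18. A GC box lay in 1 of these 6, and 57.1% of 15285 genes with such a region held at least 1. Below stand the 150 bases before the start of Bnc1 (chr7:81992300-81992449, minus strand), of Lrrn4 (chr2:132880863-132881012, minus strand), of Krt8 (chr15:102004343-102004492, minus strand) and of Krt18 (chr15:102028066-102028215, plus strand), each 5′ to 3′ on the strand of the gene with GC boxes in capitals. They were chosen to set the gene with boxes beside the keratin pair and a surface marker.
Bnc1: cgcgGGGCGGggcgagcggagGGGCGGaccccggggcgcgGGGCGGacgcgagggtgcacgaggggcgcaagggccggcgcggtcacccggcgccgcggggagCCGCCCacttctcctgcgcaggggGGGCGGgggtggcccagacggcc
Lrrn4: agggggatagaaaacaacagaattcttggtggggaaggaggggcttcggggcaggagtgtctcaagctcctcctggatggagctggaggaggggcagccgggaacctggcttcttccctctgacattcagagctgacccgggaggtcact
Krt8: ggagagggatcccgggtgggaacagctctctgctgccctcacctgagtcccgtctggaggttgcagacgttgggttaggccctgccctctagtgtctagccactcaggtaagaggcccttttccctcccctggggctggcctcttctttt
Krt18: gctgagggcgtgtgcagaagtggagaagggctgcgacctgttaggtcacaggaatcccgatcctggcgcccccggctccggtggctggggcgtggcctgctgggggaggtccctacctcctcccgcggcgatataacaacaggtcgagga
Bnc1 held 5 boxes in the stretch shown and 6 in its whole region, where 34.2% of all genes held 2 or more. The other 5 regions held none, which says only that these letters are not in the window.

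The knockout was checked first. The level of Sp1 was 21.2 ± 1.77 FPKM (SD, n = 6) in CTR and 10.6 ± 1.53 FPKM in dKO MLECs (fragments per kilobase, corrected for library size by the authors). Sp1 was lower in each of the 6 dKO libraries than in each CTR library (log2 fold change −0.95 ± 0.09 SE, limma adjusted p = 5.68e-06). Sp3 was 27.7 ± 2.31 FPKM in CTR and 25.0 ± 1.64 FPKM in dKO, and only 2 dKO libraries lay below the lowest CTR library (limma adjusted p = 0.0902). The libraries held 16549824 to 17467059 fragments in CTR and 15523054 to 17938286 in dKO. Of 12 endothelial markers fixed for the check of the cell type, all were detected and 11 rose in dKO (median log2 fold change 0.82). Over all genes tested 20.4% rose. Cdh5, the VE-cadherin gene, was 88.9 ± 16.1 FPKM in CTR and 140 ± 17.1 FPKM in dKO. These are bulk samples, in which more cells of a type and more RNA per cell cannot be told apart.

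Of the mesothelial and keratin genes, 7 rose in dKO, namely Msln, Upk1b, Upk3b, Lrrn4, Krt8, Krt18 and Krt19, and none fell. The test covered 12467 genes that reached 1 FPKM in 6 or more of the 12 libraries, and 8 of the 10 were among them. Wt1 was tested and did not pass, and Bnc1 and Muc16 were too low to be tested. Over all genes tested, 20.4% rose and 53.1% changed in either direction at an adjusted p under 0.05. The median log2 fold change was 1.15 over the 8 tested genes and −0.1 over all genes tested. The 5 genes Msln, Upk1b, Upk3b, Lrrn4 and Krt18 had every dKO library above every CTR library, as did 11.3% of all genes tested. Upk1b and Lrrn4 were also past a log2 fold change of 1.5, as were 1.43% of all genes tested in the upward direction. Each fold change given here was fitted to log2(FPKM + 1), so for genes near or below 1 FPKM it is smaller than the ratio of the means.

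**Figure D1:**
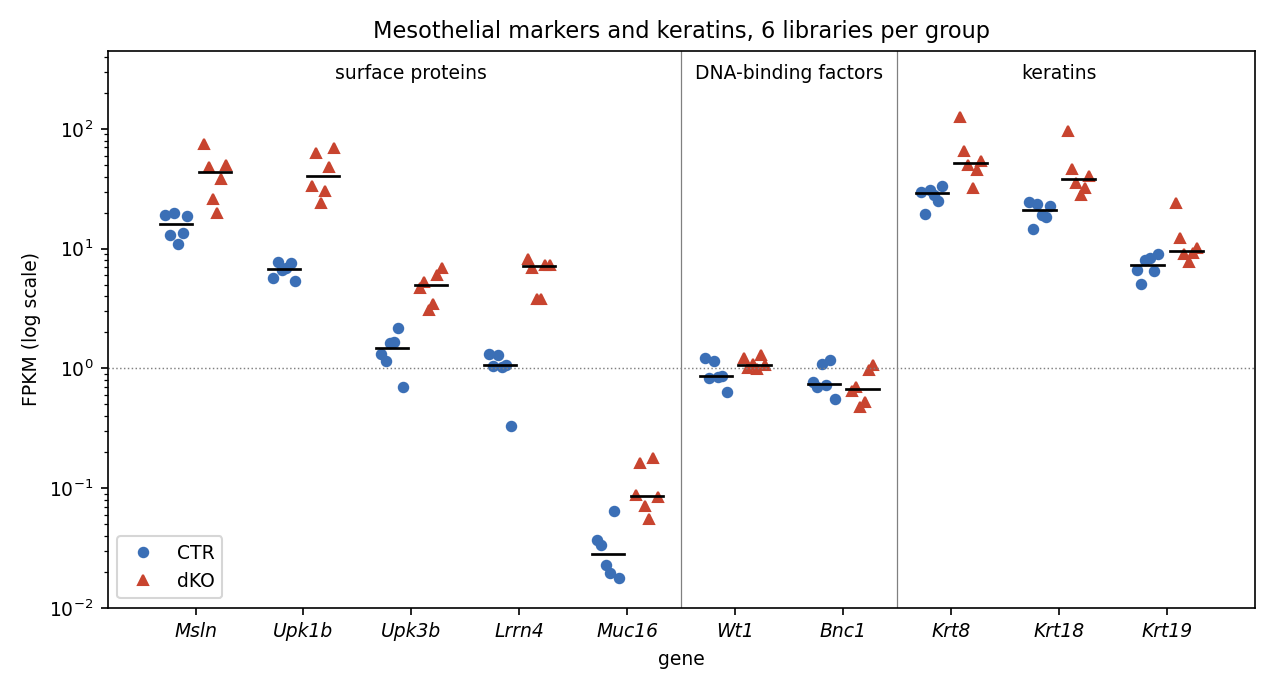
FPKM (log scale) of the 10 genes in each library, with CTR as blue circles, dKO as red triangles, the group median as a black line and 1 FPKM as a dotted line. The dKO triangles lie wholly above the CTR circles for Msln, Upk1b, Upk3b, Lrrn4 and Krt18, and the groups overlap for the other 5 genes.

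Among the surface proteins, Upk1b and Lrrn4 had the largest fold changes. On log2(FPKM + 1) Upk1b led, and with a pseudocount of 0.01 the log2 fold changes were 2.65 for Upk1b and 2.66 for Lrrn4. Upk1b (ENSMUSG00000049436, chr16:38591981-38620727 in GRCm39, minus strand) encodes a tetraspanin of the uroplakin plaques that cover urothelium and is also used as a marker of mesothelium. Its level was lowest at 5.35, median 6.83 and highest 7.73 FPKM in CTR, and lowest at 24.0, median 40.7 and highest 69.4 FPKM in dKO. The CTR libraries lay close together, and the lowest dKO library was above all of them. The group means were 6.67 ± 0.96 and 44.7 ± 18.5 FPKM (SD, n = 6), a ratio of 6.70. The log2 fold change was 2.48 ± 0.23 (SE, 95% confidence interval 1.99 to 2.97, limma adjusted p = 3.92e-06), and the exact two-sided permutation p was 0.00216, the smallest that 6 libraries against 6 allow.

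Lrrn4 (ENSMUSG00000043110, chr2:132705985-132735941, minus strand) encodes a membrane protein with leucine-rich repeats. It ranged from 0.332 over a median of 1.06 to 1.31 FPKM in CTR and from 3.81 over 7.11 to 8.15 FPKM in dKO. CTR replicate 6 stood below the other CTR libraries, and dKO replicates 3 and 4 below the other dKO libraries, with no overlap between the groups. The means were 1.01 ± 0.358 and 6.22 ± 1.91 FPKM, a ratio of 6.13 (log2 fold change 1.82 ± 0.19, adjusted p = 9.8e-06). The exons of Lrrn4 share 1375 bases with those of Crls1, the cardiolipin synthase gene, on the opposite strand. Whether counting used strand is not given in the sources used here, so the reads of the shared stretch cannot be told apart. Crls1 moved the other way, from 11.9 to 19.4 FPKM in CTR to 7.26 to 11.9 FPKM in dKO (log2 fold change −0.59 ± 0.13, adjusted p = 0.00236).

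Msln (ENSMUSG00000063011, chr17:25967312-25985619, minus strand) encodes mesothelin, a glycoprotein anchored to the mesothelial cell surface. Its levels were 10.9, 16.1 and 19.8 FPKM (lowest, median and highest) in CTR and 19.9, 43.5 and 74.4 FPKM in dKO. The groups met but did not overlap, since dKO replicate 4 lay just above the highest CTR library. The means were 15.8 ± 3.78 and 42.9 ± 19.5 FPKM, a ratio of 2.71. The log2 fold change was 1.29 ± 0.27 (95% confidence interval 0.70 to 1.88, limma adjusted p = 0.00158).

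Upk3b (ENSMUSG00000042985, chr5:136067350-136075342, plus strand) encodes another uroplakin that also marks mesothelium. It was 0.699, 1.48 and 2.19 FPKM in CTR and 3.06, 4.98 and 6.87 FPKM in dKO, given as lowest, median and highest. Every dKO library was above every CTR library. The means were 1.44 ± 0.507 and 4.90 ± 1.48 FPKM, a ratio of 3.40 (log2 fold change 1.26 ± 0.18, adjusted p = 9.88e-05).

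Muc16 (ENSMUSG00000109564, chr9:18406745-18585826, minus strand) encodes the very large membrane mucin that carries the CA-125 antigen and binds mesothelin. It was far below the test's minimum, at 0.0178 to 0.0643 FPKM in CTR (median 0.0283) and 0.055 to 0.178 FPKM in dKO (median 0.0863). Summed over the 6 libraries these levels rested on 88 fragments in CTR and 290 in dKO, with 8 to 82 in a single library. The dKO level was higher in 5 of 6 libraries than in any CTR library, and CTR replicate 5 overlapped with dKO. The ratio of the means was 3.28, and the exact permutation p was 0.00433. With no filter the gene passed at an adjusted p of 0.0208, with a log2 fold change of 0.10 that the added 1 FPKM compresses. On the recovered fragments of all genes, limma-voom gave 1.69 ± 0.38 (adjusted p = 0.00336), an alternative chosen after the data had been seen.

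The nuclear factors Wt1 and Bnc1 did not pass a test in either direction. Wt1 (ENSMUSG00000016458, chr2:104956625-105003961, plus strand) encodes the Wilms tumour zinc finger factor, which marks mesothelium from the embryo onwards. It was 0.635, 0.859 and 1.23 FPKM in CTR and 0.981, 1.08 and 1.3 FPKM in dKO, again as lowest, median and highest. The dKO libraries lay within the upper part of the CTR range, with 1 library above it. The means of 0.93 ± 0.224 and 1.11 ± 0.124 FPKM gave a log2 fold change of 0.13 ± 0.09 (adjusted p = 0.204, exact permutation p = 0.106). Its 95% confidence interval of −0.05 to 0.32 lay below the intervals of Msln, Upk1b, Upk3b and Lrrn4. The added 1 FPKM compresses the change of Wt1 more than that of the more abundant Msln. With a pseudocount of 0.01 the log2 fold changes were 0.28 ± 0.18 for Wt1 and 1.34 ± 0.28 for Msln.

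Bnc1 (ENSMUSG00000025105, chr7:81616401-81642341, minus strand) encodes basonuclin 1, a zinc finger protein of keratinocytes, germ cells and mesothelium. It reached 1 FPKM in 3 libraries only. The levels were 0.556 to 1.18 FPKM in CTR (median 0.746) and 0.478 to 1.06 FPKM in dKO (median 0.673), from 397 and 348 fragments in all. The 2 ranges covered each other almost wholly (exact permutation p = 0.448).

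Ratios within libraries are given as a description, since they were chosen after the values had been seen. The ratio of Lrrn4 to Wt1 was 0.523 to 1.27 in CTR and 3.52 to 6.88 in dKO, with no overlap. The ratio of Msln to Wt1 was 12.9 to 29.3 in CTR and 20.2 to 61.2 in dKO, and the groups overlapped. Upk1b stood at 0.287 to 0.636 of the Msln level in CTR and at 0.45 to 1.53 in dKO, again with an overlap.

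**Figure D2:**
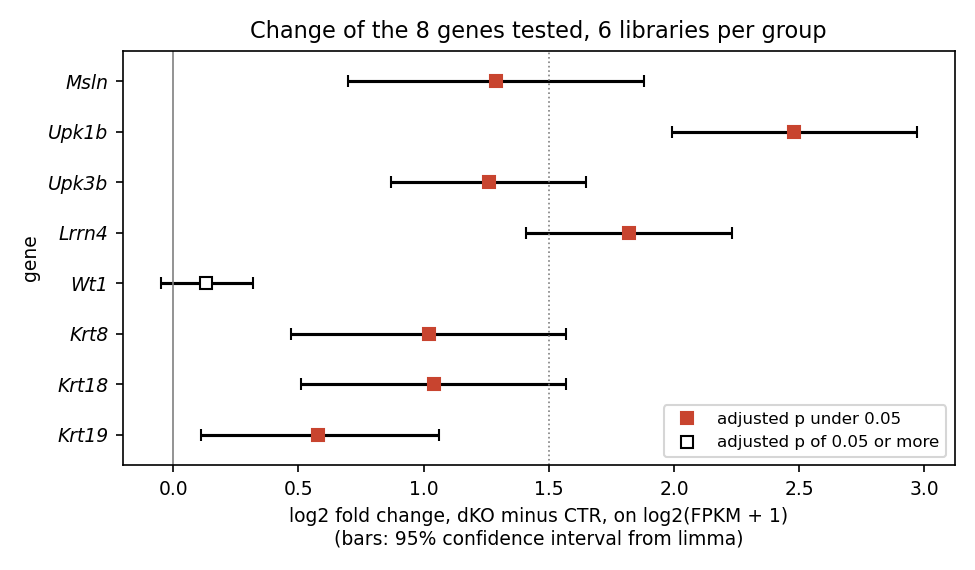
log2 fold change (dKO minus CTR, on log2(FPKM + 1)) of the 8 genes tested, with 95% confidence intervals from limma, a solid line at 0 and a dotted line at 1.5. Upk1b at 2.48 and Lrrn4 at 1.82 lie beyond 1.5, the keratins lie at 0.58 to 1.04, and the interval of Wt1 spans 0.

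All of Krt8, Krt18 and Krt19 were higher on average in dKO, by ratios of 2.23, 2.27 and 1.66. Krt18 (ENSMUSG00000023043, chr15:101936615-101940462, plus strand) was 14.6, 20.9 and 24.6 FPKM in CTR and 28.2, 38.0 and 96.0 FPKM in dKO (lowest, median and highest). The groups did not overlap, and dKO replicate 1 stood far above the rest. The means were 20.5 ± 3.81 and 46.5 ± 25.1 FPKM, with a log2 fold change of 1.04 ± 0.24 (adjusted p = 0.00328, exact permutation p = 0.00216).

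Krt8 (ENSMUSG00000049382, chr15:101905133-101912917, minus strand), the type II partner of Krt18, had the highest mean FPKM of the 10 genes in each group, although Upk1b was above it in dKO replicates 5 and 6. Its levels were 19.4, 29.0 and 33.6 FPKM in CTR and 32.2, 51.7 and 126 FPKM in dKO. The groups overlapped by 1 library, dKO replicate 4, which lay below CTR replicate 6. The means were 27.8 ± 5.04 and 62.0 ± 33.0 FPKM, with a log2 fold change of 1.02 ± 0.25 (adjusted p = 0.00492, exact permutation p = 0.00433). Its processed pseudogene Krt8-ps shares 98.6% of 941 bases with it and was listed at 0.495% to 2.59% of the Krt8 level.

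Krt19 (ENSMUSG00000020911, chr11:100031636-100039491, minus strand) moved least among the keratins. It was 5.04, 7.32 and 9.09 FPKM in CTR and 7.75, 9.63 and 24.0 FPKM in dKO. The groups overlapped, with 4 of 6 dKO libraries above the highest CTR library. The means were 7.26 ± 1.47 and 12.1 ± 6.02 FPKM (log2 fold change 0.58 ± 0.22, adjusted p = 0.0403, exact permutation p = 0.0195). This call was the weakest of the 7. Without dKO replicate 1 the log2 fold change was 0.38 (adjusted p = 0.0358), and it was no longer called when any 1 of CTR replicates 1, 2, 3 and 5 or of dKO replicates 2 and 6 was left out, with adjusted p up to 0.0878 over all alternatives.

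Krt8 and Krt18 are neighbours on chromosome 15, with 23698 bases between them on opposite strands, and their ratio varied little among the libraries. Krt8 was 1.21 to 1.48 times Krt18 in CTR and 1.14 to 1.41 times in dKO (log2 difference −0.03). The Krt19 to Krt18 ratio was 0.27 to 0.438 in CTR and 0.249 to 0.285 in dKO, a log2 difference of −0.43, with overlapping groups. The floxed Sp1 gene lies on the same chromosome, 374 kb beyond Krt18. A part of this position in the keratin levels was not tested.

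**Figure D3:**
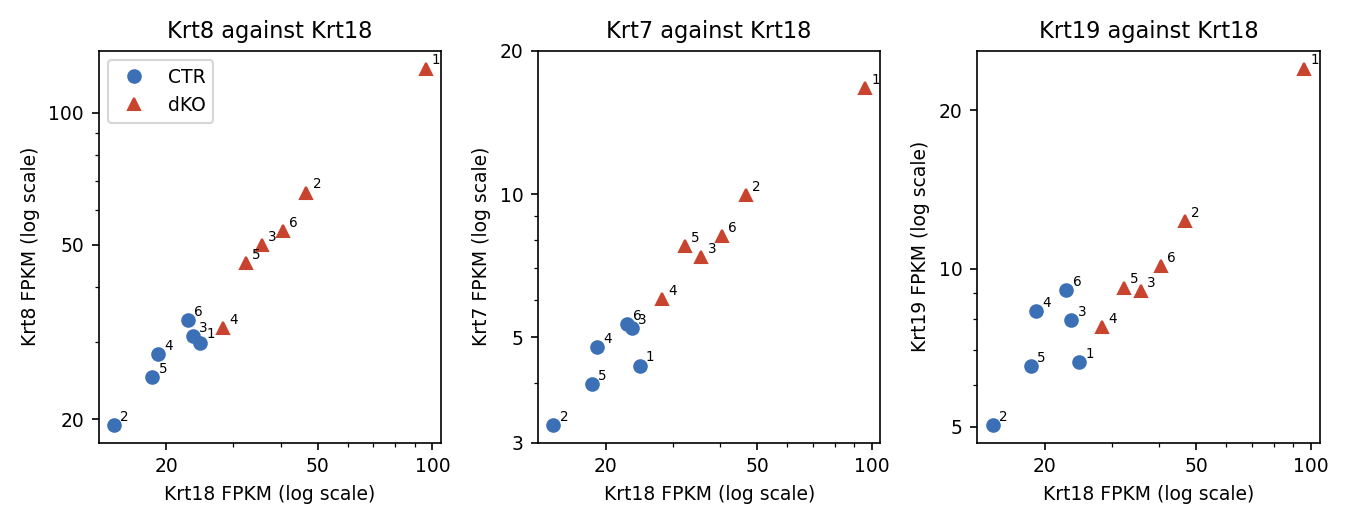
FPKM of Krt8, Krt7 and Krt19 against FPKM of Krt18 in the 12 libraries (both axes log scale), with CTR as blue circles, dKO as red triangles and the replicate number beside each point. Krt8 and Krt7 climb with Krt18 through both groups up to dKO replicate 1 (96.0 FPKM of Krt18), whereas Krt19 is at most 0.285 of Krt18 in dKO and up to 0.438 of it in CTR.

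The order of the 10 levels changed with the rise of Upk1b. In CTR the order by mean was Krt8, Krt18, Msln, Krt19, Upk1b, Upk3b, Lrrn4, Wt1, Bnc1 and Muc16. Krt19 and Upk1b were not separated there, since Krt19 was the higher in 4 of 6 libraries, and Lrrn4 was above Wt1, and Wt1 above Bnc1, in 5 of 6. In dKO, Upk1b stood next after Krt18, at about the level of Krt18 (Krt18 was the higher in 2 of 6 libraries) and of Msln (Upk1b was the higher in 4 of 6). Lrrn4 was above Upk3b in each dKO library, and below it in each CTR library.

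In some libraries many of the genes were high or low together. The lowest dKO level of all 10 genes was in replicate 4, for 7 of them, or in replicate 3, for the other 3. The highest was in replicate 1 for Msln, Lrrn4 and the 3 keratins, in replicate 6 for Upk1b, Upk3b and Bnc1, and in replicate 5 for Wt1 and Muc16. In CTR, replicate 6 was the lowest for Upk1b, Upk3b, Wt1, Lrrn4, Bnc1 and Muc16 and at the same time the highest for Krt8 and Krt19. Replicate 2 was the lowest CTR library for the 3 keratins. The surface proteins summed to 20.6 to 29.5 FPKM in CTR and 57.1 to 134 FPKM in dKO, highest in replicate 6. The keratins summed to 39.0 to 65.4 FPKM in CTR and 68.1 to 246 FPKM in dKO, highest in replicate 1. Without dKO replicate 1, Krt8 had a log2 fold change of 0.79 (adjusted p = 0.00244), Krt18 of 0.81 (adjusted p = 0.000785) and Msln of 1.11 (adjusted p = 0.00225).

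**Figure D4:**
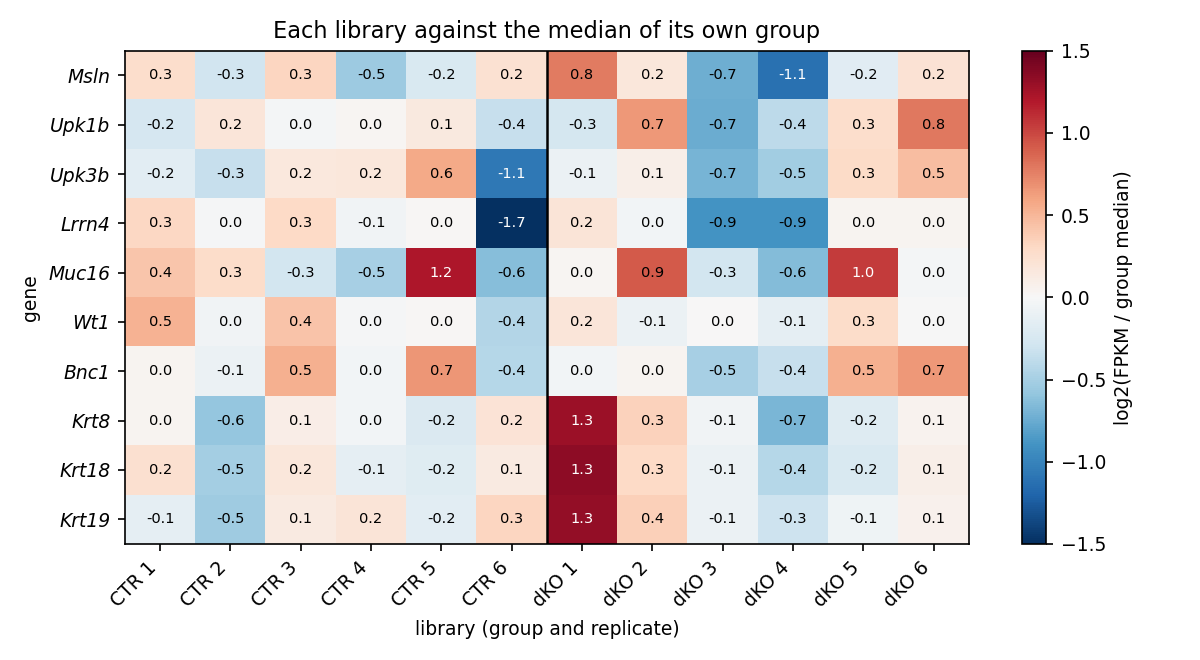
log2 of each library's FPKM over the median of its own group, for the 10 genes (rows) and the 12 libraries (columns, CTR left of the line and dKO right of it), red for above and blue for below. The 3 keratins are 1.3 above their median in dKO replicate 1, dKO replicates 3 and 4 are low for most genes, and CTR replicate 6 is low for 6 mesothelial genes and not for Msln or the keratins.

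The other genes listed for mesothelium were mixed. Of 15 such genes 8 were tested, and 5 of these rose and none fell (median log2 fold change 0.34), where 20.4% of all genes tested rose. With no filter 3 of the 15 passed. Gpm6a, a membrane glycoprotein, rose from 2.55 ± 0.848 to 4.48 ± 1.33 FPKM (log2 fold change 0.63 ± 0.18, adjusted p = 0.0093). Aldh1a1, a retinal dehydrogenase that other lung cells also express, was the most abundant of them and went from 113 ± 34.6 to 170 ± 40.0 FPKM (0.61 ± 0.21, adjusted p = 0.0247). Tmem151a (0.40, adjusted p = 0.00414) and Ezr, the gene of the microvillus linker ezrin (0.22, adjusted p = 0.0493), rose as well. The 3 that were tested and did not pass were Ildr2 (0.28, adjusted p = 0.0791), Pdpn, the podoplanin gene (−0.08, adjusted p = 0.833), and Aldh1a2, another retinal dehydrogenase, at 7.72 ± 2.78 and 5.28 ± 1.42 FPKM (−0.43, adjusted p = 0.116). None of the 15 had all dKO libraries above all CTR libraries. Calb2, the calretinin gene used to stain mesothelium in pathology, was at most 0.198 FPKM in CTR and 0.38 FPKM in dKO.

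Relatives of the mesothelial markers were read as a further list, which holds no keratin. Of 9 such paralogs in the table, 3 were tested, of which 2 fell and 1 did not pass, and 6 stayed below 1 FPKM in each library. Over all genes tested 53.1% changed in either direction. Bnc2, the paralog of Bnc1 that fibroblasts express, fell from 5.25 ± 1.12 to 2.29 ± 0.632 FPKM (log2 fold change −0.93 ± 0.14, adjusted p = 0.00016), with no overlap. Lrrn3, a paralog of Lrrn4, fell from 2.45 ± 1.06 to 0.969 ± 0.28 FPKM (−0.77 ± 0.18, adjusted p = 0.00349). Muc1, a mucin of many epithelia and the most abundant of these paralogs by its mean over all libraries, was 4.01 ± 0.857 and 4.29 ± 0.899 FPKM (adjusted p = 0.676).

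Of 11 other keratins in the table, 8 were below 1 FPKM in each library and 2 were tested. Krt7, the type II keratin that pairs with Krt19 and Krt18 in simple epithelium and mesothelium, rose from 4.49 ± 0.783 to 9.32 ± 3.82 FPKM with no overlap (0.86 ± 0.19, adjusted p = 0.00208). Krt80, the most abundant of these keratins by its mean over all libraries, was 8.06 ± 2.05 and 6.67 ± 1.08 FPKM (adjusted p = 0.249). Krt5 and Krt14, the pair of basal cells, were at most 0.0255 and 0.787 FPKM. Krt14 was 0 to 0.0651 FPKM in CTR and 0.0634 to 0.787 FPKM in dKO. Krt17, also not tested, was 0.227 to 0.452 FPKM in CTR and 0.22 to 6.02 FPKM in dKO, highest in replicate 1. For each of Krt14 and Krt17, 4 dKO libraries lay above the highest CTR library. With no filter 3 of the 11 keratins passed, all higher in dKO. Among 9 genes that link keratin filaments to junctions, 5 were tested and 2 rose, where 20.4% of all genes tested rose. The 2 were Jup, which encodes plakoglobin, at 0.76 ± 0.09 (adjusted p = 2.7e-05), and Plec, which encodes plectin, at 0.73 ± 0.09 (adjusted p = 4.7e-05). The desmosome gene Dsp was 0.90 ± 0.167 and 1.11 ± 0.28 FPKM and was not tested. Vim, the vimentin gene, stood at 444 ± 26.9 FPKM in CTR and 477 ± 60.1 FPKM in dKO (0.10 ± 0.08, adjusted p = 0.355), far above each keratin in both groups. Of the 7 tested among 8 intermediate filament genes other than keratins, Synm, the synemin gene, rose (0.41, adjusted p = 0.00291) and Lmnb1, the lamin B1 gene, fell (−0.76, adjusted p = 0.00777).

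**Figure D5:**
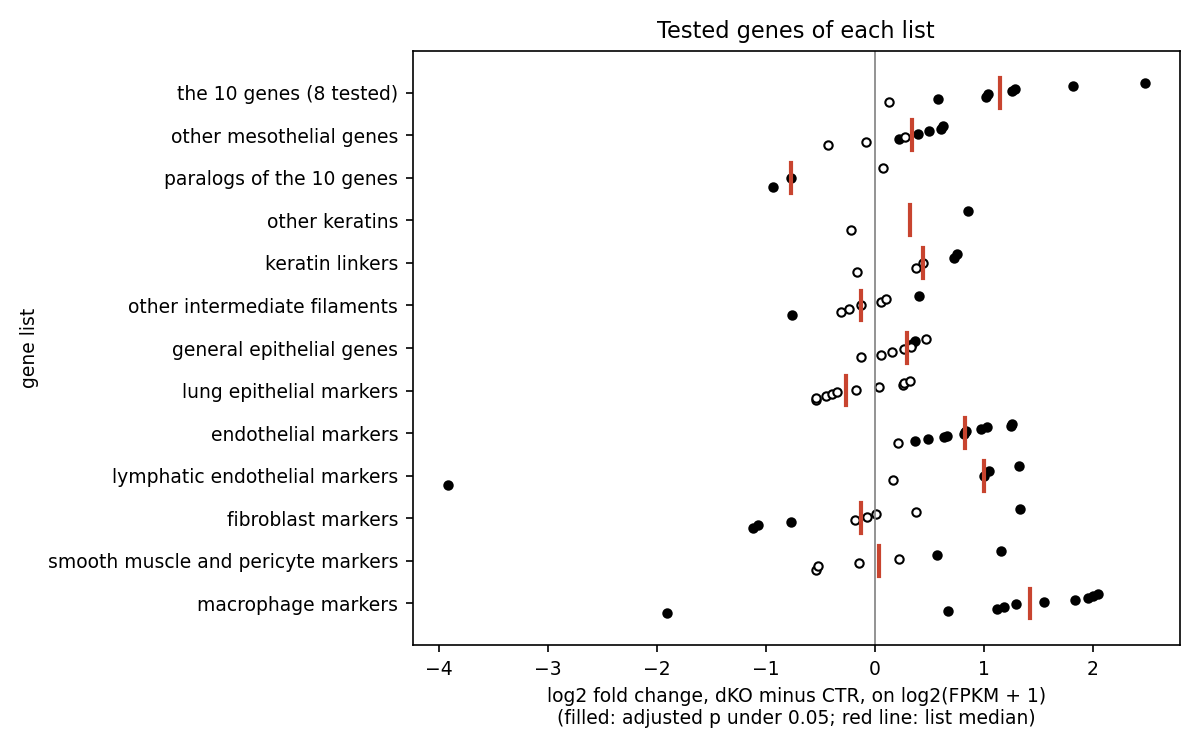
log2 fold change (dKO minus CTR, on log2(FPKM + 1)) of the tested genes of each list, 1 point a gene, filled for an adjusted p under 0.05, with the list median as a red line. The 8 tested genes have a median of 1.15, the other mesothelial genes of 0.34, the general epithelial genes of 0.30 and the lung epithelial markers of −0.26.

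Markers of other cells were read beside these results. Of 12 general epithelial genes 8 were tested and 2 rose, Epcam (0.34, adjusted p = 0.0186) and Cldn7 (0.37, adjusted p = 0.0488), and with no filter 1 of the 12 passed. As a count, 2 of 8 is near the 20.4% of all genes tested that rose. Cldn4, the most abundant of them, was 20.9 ± 6.18 and 30.0 ± 12 FPKM (adjusted p = 0.106). Summed over the 12 genes they were at 35.5 to 62.7 FPKM in CTR and 44.8 to 99.5 FPKM in dKO, and among the dKO libraries replicate 1, in which the keratins stood out, was the highest for 10 of the 12. Of 12 lung epithelial markers 10 were tested with limma and 0 passed (median −0.26), 0 also at an unadjusted p under 0.05. With no filter 1 of the 12 passed, and it was lower in dKO. Their sums were 97.5 to 566 FPKM in CTR and 156 to 391 FPKM in dKO. Sftpc, the surfactant protein gene of alveolar type II cells, was 180 ± 131 and 192 ± 71.2 FPKM (adjusted p = 0.53). In dKO, 9 of these 12 markers were highest in replicate 4, the library in which 7 of the 10 mesothelial and keratin genes were lowest. No gene of the epithelial lists was at 0 in all libraries.

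Fibroblast and macrophage markers were read as well, where 20.4% of all genes tested rose and 53.1% changed in either direction. Of 9 fibroblast markers 8 were tested, 3 fell, 1 rose and 4 did not pass (median log2 fold change −0.13). As a count this is near the share over all genes. The 3 that fell were the collagen genes Col1a1, Col1a2 and Col3a1. All 9 fibroblast markers together summed to 2580 to 3610 FPKM in CTR and 1320 to 2490 FPKM in dKO. Col1a1, a collagen I chain, fell by 1.07 on the log2 scale (limma adjusted p = 4.75e-05), while Dcn, the decorin gene, rose by 1.33 (adjusted p = 0.00033). Macrophage markers summed to 760 to 1300 FPKM in CTR and 1820 to 3830 FPKM in dKO, with 9 of 10 rising and Marco, a scavenger receptor, falling. Among the 9, Fcgr1 was at most 0.835 FPKM in CTR and at least 1.96 FPKM in dKO. It thus passed the filter through dKO alone, and its call is no separate support. The smooth muscle and pericyte list held 2 genes that rose among 6 tested, and the lymphatic endothelial list 3 that rose and 1 that fell among 5. The gene that fell was Mmrn1, at 8.46 to 19.3 FPKM in CTR and at 0 FPKM in each dKO library. It passed the filter through the CTR libraries alone, and the cause of its absence in dKO was not tested. Replicate 4 was the highest dKO library for 6 of 9 fibroblast and 5 of 12 endothelial markers as well. Replicate 1 was the highest for 5 of 7 smooth muscle and pericyte markers, and replicate 3 for 8 of 10 macrophage markers. The part of these other cells in the levels of the 10 genes was not tested.

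The genes most like the 10 in how they varied among libraries of a group were sought by Pearson correlation over the 12 libraries, with each group's mean taken off. They were Crct1 (r = 0.932), Procr (0.919), Adss2 (0.914), Polr2l (0.911) and Ercc5 (0.911). The points share their libraries with the 10 genes, and the values are a description. Crct1, a gene of the epidermal differentiation cluster, was 0 to 0.797 FPKM in CTR and 2.53 to 27.4 FPKM in dKO. It reached 1 FPKM in dKO libraries only and so passed the filter through that group alone, and no test is given for it. Procr, which encodes the endothelial protein C receptor, rose by 0.66 ± 0.19 (adjusted p = 0.0115). Crct1 and Procr were highest in dKO replicate 1, as was Polr2l, which rose by 0.85 ± 0.12 (limma adjusted p = 6.71e-05). Adss2 (−0.14, adjusted p = 0.175) and Ercc5 (−0.02, adjusted p = 0.823) did not pass.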

How the data were processed

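RNA of MLECs was sequenced on a NovaSeq as paired ends. The authors used Trimmomatic for trimming and STAR for alignment to mm39, extracted unique reads with sambamba and realigned these. The submitters' processing notes list Bowtie2 2.2.3, HISAT2 2.1.0, TopHat2 and DESeq2, and the labels' extraction text differs from the study's methods in tissue and kit. The counter, annotation and strand setting are not given in the sources used here. The deposited values are FPKM. Columns named TAM were assigned to dKO by elimination, since both groups received tamoxifen.

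Positions and symbols came from the GENCODE annotation of GRCm39 (27706 genes matched by identifier). Fragments were recovered from the FPKM as whole numbers for all 28689 genes (tolerance 0.01) and used for depth and alternatives. Genes that reached 1 FPKM in 6 or more libraries entered limma 3.58.1 (R 4.3.3, eBayes with a trend) on log2(FPKM + 1), adjusted by Benjamini-Hochberg. Exact permutation tests (SciPy 1.17.1) were two-sided. Steps were tested on simulated data. Alternatives were other pseudocounts, filters and scalings, robust eBayes, a replicate block, limma-voom, and leaving out each library.

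Members and lists were chosen with earlier results of these data known. Named genes were taken from the 10 members, from each list the 2 highest and 2 lowest called genes and the most abundant, the 5 most alike genes, Sp1 and Sp3. Not every gene picked by this rule is named, above all in the endothelial, lymphatic, smooth muscle and macrophage lists. Calb2, Aldh1a2, Pdpn, Ildr2, Dsp, Krt5, Krt14, Krt17, Crls1 and Krt8-ps were named after their values were seen. Near-identical copies were sought by BLAST of the transcripts.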

Additional observations from a re-analysis of the deposited data

Results flagged for a closer look

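A sample far from the others of its group was found in 4 of the 20 groups of 6 libraries (10 genes in each of CTR and dKO), where chance gives about 1 in 20. Lrrn4 was 0.332 FPKM in CTR replicate 6, against 1.02 to 1.31 FPKM in the other CTR libraries. In dKO replicate 1, Krt8 was 126 FPKM against 32.2 to 65.7 FPKM in the other dKO libraries. Krt18 was 96.0 FPKM there, against 28.2 to 46.7 FPKM, and Krt19 was 24.0 FPKM, against 7.75 to 12.3 FPKM. The 3 keratin values come from the same library and are not independent of each other. The search used FPKM itself and not its logarithm, a scale on which high values stand out more. The share given for chance holds for normally distributed values only.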

How the results depend on the processing

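No gene reversed its direction under the alternatives that tested it (24 for Msln, Upk1b and the keratins, 23 for Upk3b, Wt1 and Lrrn4, 2 beside the fit with no filter for Bnc1 and Muc16), and 5 to 7 of the 10 were called, against 7 in the analysis as reported. The 5 arose with a filter of at least 5 FPKM, which left 5 genes to test. Msln, Upk1b, Upk3b, Lrrn4, Krt8 and Krt18 were called under every alternative that tested them, and Wt1 under none. Krt19 lost its call in 11 of 24, with adjusted p up to 0.0878. Genes past both thresholds numbered 2, and were 1 with the filter of at least 5 FPKM, where Lrrn4 and Upk3b were not tested, 3 with either lower pseudocount, with no filter and a pseudocount of 0.1, with TPM and with limma-voom on the tested genes, where Upk3b (1.54 to 1.78) joined, and 4 with limma-voom on all genes, where Upk3b (1.78) and Muc16 (1.69) did. Leaving out single libraries gave 6 to 7 called and 2 past both thresholds. With the replicate block 6 were called, Krt19 being lost (adjusted p = 0.0552). The numbers did not pair the libraries: same-numbered deviations correlated at −0.108 to 0.565, over 0.1 in 3 of 6 pairs, and 2 libraries correlated best with their own number. Over all tested genes, the calls split into 2549 higher and 4065 lower, and into 3213 and 3012 with median-of-ratios scaling, which moved the median log2 change from −0.1 to −0.02. With no filter, genes near 0 entered the lists. The number passing became 3 for the other mesothelial genes and 3 for the other keratins, all higher in dKO. It became 1 for the general epithelial genes, higher in dKO, and 1 for the lung epithelial markers, lower in dKO. The median log2 change became 0.22, 0.04 and 0.11 for the first 3 of these lists. For the paralogs it became 0.01 (−1.18 with a pseudocount of 0.1). It became 0.15 for the keratin linkers and −0.14 for the smooth muscle and pericyte markers. Depth limited Muc16 (8 to 82 fragments a library) and Bnc1 (39 to 94).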
